A study of Mus musculus with 47 samples.

Results

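The genes described here were 8 members of the interferon response, chosen by gene symbol from a bulk RNA-seq count table of mouse hypothalamus that held 14221 genes: the transcription factors Stat2, Irf1, Irf7 and Irf9 and the antiviral effectors Bst2, Ifitm3, Isg15 and Ifit3. Each symbol matched 1 gene of the table except Isg15, which the table did not hold and which was not analysed here, so 7 of the 8 members carry values. All 7 were above the minimum count used for testing.

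The hypothalamus was taken from 47 male ob/ob mice, a strain that lacks leptin and becomes obese, and each library came from 1 mouse with a labelled age of 11 weeks. Every mouse received a single intracerebroventricular (icv) injection, either 3 µg of fibroblast growth factor 1 (FGF1), a growth factor that lowers blood glucose for weeks after central delivery in such mice, or vehicle, and different mice were collected on Day 1, Day 5 and Day 42. FGF1 was given to 10, 9 and 5 mice on Days 1, 5 and 42, and vehicle to 4, 7 and 5 mice labelled non-diabetic pair fed on the same days. A further 7 vehicle mice of Day 5 were labelled diabetic pair fed, so the Day 5 FGF1 mice had a pair of control groups. Pair feeding gives the control animal the amount of food that an FGF1 mouse ate, and the labels do not say what the non-diabetic label rests on. The labels separate the groups by injection, day and, among vehicle mice, the diabetic or non-diabetic label, and name no transgene. The deposited sample sheet gives each day its own preparation label, so that a difference in level between days cannot be told apart from one between preparations, and only differences within a day were tested or carried between days. Replicate numbers below follow the order of the series and only name a mouse.

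Type I interferons bind the receptor pair Ifnar1 and Ifnar2, whose kinases phosphorylate Stat2. Stat2 and Irf9 act within the complex ISGF3, which binds the interferon-stimulated response element (ISRE) in the promoters of antiviral genes, whereas interferon gamma acts on the gamma-activated site (GAS), with Irf1 among its rapid targets. Irf7 amplifies the response by driving transcription of the type I interferon genes. Of the effectors, Bst2 (tetherin) holds budding virions at the cell surface, Ifitm3 sits in endosomal membranes and hinders viral fusion, and Ifit3 belongs to a cytoplasmic complex that binds foreign RNA. In the brain, microglia, astrocytes and endothelial cells all respond to interferon.

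Promoter stretches of 5 members are printed because they carry the elements through which interferon-activated factors act. They come from RefSeq (build GRCm38.p6), read 5′ to 3′ on the strand of the gene, and capitals mark each match to the ISRE core (GAAA, any 2 bases, GAAA) or the GAS core TTCNNNGAA, searched on both strands in a window from 250 bases before to 50 bases after each start site.
Stat2 (chr10:128270251-128270310, plus strand): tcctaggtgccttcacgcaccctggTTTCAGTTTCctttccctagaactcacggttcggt
Irf1 (chr11:53769899-53769957, plus strand): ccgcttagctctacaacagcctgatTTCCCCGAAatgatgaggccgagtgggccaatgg
Bst2 (chr8:71537562-71537633, minus strand): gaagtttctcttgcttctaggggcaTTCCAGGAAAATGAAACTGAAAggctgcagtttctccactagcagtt
Ifitm3 (chr7:141010715-141010744, minus strand): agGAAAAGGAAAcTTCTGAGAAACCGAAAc
Ifit3 (chr19:34583348-34583441, plus strand): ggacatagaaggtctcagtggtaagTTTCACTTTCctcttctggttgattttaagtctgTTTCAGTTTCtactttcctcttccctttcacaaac
Stat2 had 1 ISRE core on the reverse strand, Irf1 a GAS core in 1 of its 2 annotated windows, and Ifit3 a pair of ISRE cores on the reverse strand. In Bst2 a GAS core overlapped the first of 2 ISRE cores, which overlapped each other, and in Ifitm3 a GAS core overlapped the second of 2 ISRE cores, all within the first 30 transcribed bases. The window of Irf7 and both windows of Irf9 held neither set of letters. Among 32851 promoter windows of the genome, 3.44% held the ISRE core, 8.30% the GAS core and 11.3% at least 1 of them. These matches describe letters, not bound sites.

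In GENCODE M21 (GRCm38) the members lie at chr10:128270559-128292849 (Stat2), chr11:53770014-53778374 (Irf1), chr7:141262706-141266481 (Irf7), chr14:55603571-55610030 (Irf9), chr8:71534255-71537456 (Bst2), chr7:141009586-141010770 (Ifitm3) and chr19:34583531-34588731 (Ifit3). Ifit3 counts are uncertain because 51.2% of the 50-base windows of its transcripts also occur in other genes, chiefly its neighbour and near-identical copy Ifit3b. The same share was 10.0% for Ifitm3 and at most 1.67% for the other 5 members. Exons of Irf9 share 123 bases with Rnf31 on the same strand.

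Libraries held 1243280 to 47082403 counts in the FGF1 mice of Day 1, 37281555 to 42887789 in the vehicle mice of that day, 7579695 to 30009258 on Day 5 and 19416026 to 43934003 on Day 42. The smallest library, FGF1 mouse 1 of Day 1, had only 5 to 45 counts per member, and results that turn on it are given with and without it. Of 11 hypothalamic neuron markers, 10 were in the table, with summed levels between 361 and 1537 normalized counts per library. Normalized counts throughout are CPM values, that is counts divided by the TMM-scaled library total and brought to a common library size, and a gene was called changed when its adjusted p (edgeR quasi-likelihood test, adjusted over 14221 genes) was under 0.05 and its log2 fold change beyond 0.5 in either direction. Whether replicates came from separate cohorts is not stated, so p-values measure only spread between mice. The edgeR fit pooled that spread over all 47 libraries and all days, except where the mice of a day were fitted alone. The median SD of log2 normalized counts within a group was 0.208 and 0.218 on Day 1, and 0.107 to 0.116 on Day 5. On Day 42 it was 0.190 and 0.237, so the pooled estimate need not fit any single day. Permutation tests used only the groups compared.

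A pair of vehicle mice stood apart from their groups in the interferon genes and are described before the comparisons that rest on them. They were singled out by these same values, so a fit without either raises the members' fold changes, FGF1 against vehicle, by construction. Shares of all genes beside such fits are therefore not a like comparison. On Day 1, vehicle mouse 4 had the highest level of the 4 vehicle mice for 7 of 7 members and for 60 of 108 interferon pathway genes (55.6%), whereas it was the highest for 26.8% of all genes. Its Ifit3 level was 61.4 normalized counts against 14.6 to 18.4 in the other 3 mice. Its levels were 3.20 times the mean of the other 3 mice for Irf7, 3.05 times for Bst2 and 1.08 times for Irf1. On Day 5, non-diabetic vehicle mouse 2 was the highest of 7 mice for 7 of 7 members and for 66 of the 108 pathway genes (61.1%), against 15.6% of all genes. Its levels ranged from 1.60 times (Stat2) to 3.33 times (Bst2) the mean of its 6 group mates.

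In vehicle mouse 2 of Day 5 the pathway genes furthest above its group mates were targets of interferon gamma. The guanylate-binding protein Gbp2 was at 87.0 normalized counts against a mean of 5.64 in the group mates. The immunity-related GTPase Iigp1 was at 32.0 against 2.19. The summed level of 16 interferon gamma targets was 368 in this mouse and 54.6 to 73.5 in the other 6. In vehicle mouse 4 of Day 1 the same sum was 99.6 against 53.2 to 69.5, and the pathway genes furthest above the other mice were Gbp3, the antiviral gene Oasl2, the ISG15 protease Usp18, Ifit1, Ifit3b and Iigp1, at 3.09 to 3.71 times the mean of the others (with 0.5 added to both). Gbp2, Gbp3, Iigp1, Oasl2, Ifit1, Ifit3b and Usp18 are named here after their values were seen. Summed microglial markers were 394 in the Day 5 mouse against 247 to 273 in its group mates, and summed leukocyte markers 40.8 against 13.3 to 21.9. In the Day 1 mouse they were 256 against 225 to 256 and 11.0 against 11.7 to 16.9. The part of these cells in the members' levels was not tested. In bulk tissue, fewer cells of a type and less RNA per cell cannot be told apart, here and in the results that follow.

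**Figure D1:**
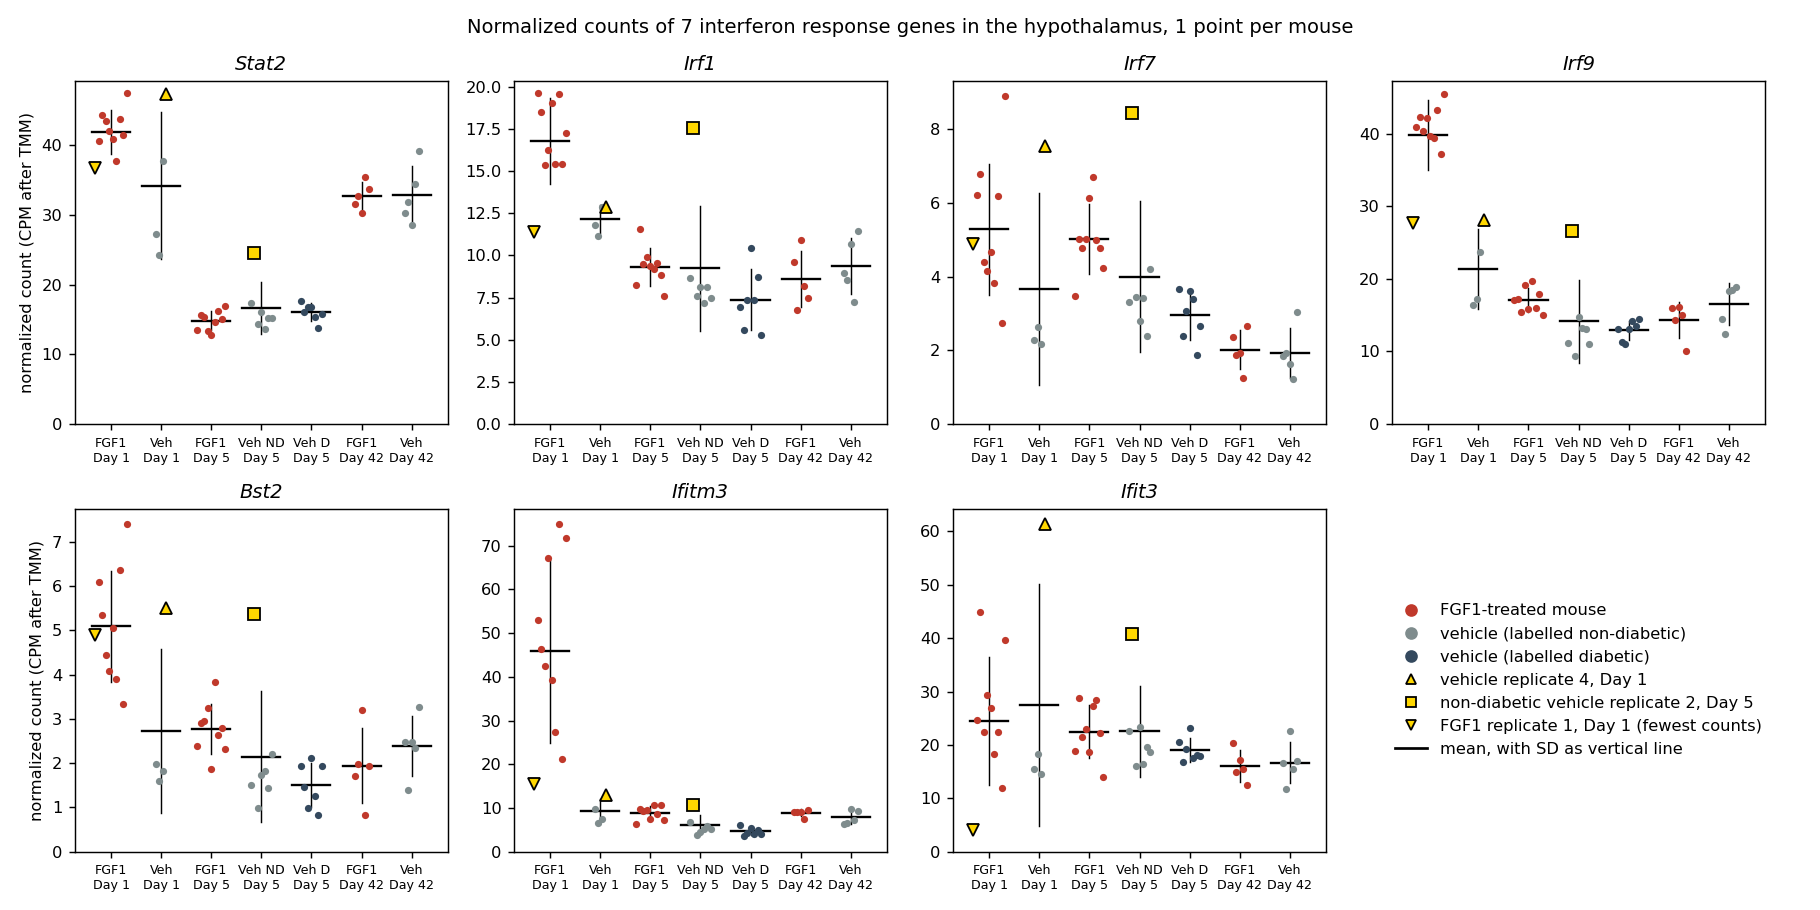
Normalized count (CPM after TMM scaling, axes from 0) of each of the 7 members in each of the 47 mice, grouped by treatment and day, with 1 point per mouse, a horizontal line at the group mean and a vertical line for the SD; triangles and squares mark the 2 vehicle mice described above and FGF1 mouse 1 of Day 1. Vehicle mouse 4 of Day 1 (Ifit3 at 61.4) and non-diabetic vehicle mouse 2 of Day 5 (Ifit3 at 40.7) sit above their group mates in the 7 panels, and Ifitm3 on Day 1 is the panel in which the groups part most, at 15.5 to 74.9 with FGF1 and 6.63 to 12.96 with vehicle.

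On Day 1, Ifitm3, Irf9 and Bst2 rose in FGF1 mice, and the other 4 members were not called. Thus 3 of 7 members were called higher and 0 lower, in a comparison in which 11.5% of all genes were called higher and 19.5% in either direction. Without vehicle mouse 4, Irf1, Irf7 and Ifit3 were called higher as well, which gave 6 of 7, and the share of all genes called higher was then 12.8%. By the adjusted p alone, with no fold threshold, 5 of 7 members passed with all mice included, as did 45% of all genes.

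Ifitm3 had the largest difference of the 7. Its level was 9.84, 6.63, 7.59 and 12.96 normalized counts in the 4 vehicle mice, and the lowest, median and highest of the 10 FGF1 mice were 15.5, 44.5 and 74.9. Each FGF1 mouse exceeded each vehicle mouse, which held for 1 of 7 members and for 7.56% of all genes. The level was 5.10-fold higher (log2 fold change 2.35 ± 0.26, SE, n = 10 and 4; edgeR adjusted p = 2.51e-10), and an exact two-sided permutation test gave p = 0.000999, the smallest that these group sizes allow.

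Bst2 was at 1.98, 1.61, 1.82 and 5.50 normalized counts in the vehicle mice and at 3.35, 4.97 and 7.41 (lowest, median, highest) in the FGF1 mice. The groups overlapped through vehicle mouse 4 alone, whose level was above the FGF1 median. The log2 fold change was 0.91 ± 0.29 (edgeR adjusted p = 0.00882), with an exact two-sided permutation p of 0.00799, and it was 1.503 (edgeR adjusted p = 8.00e-05) without that mouse. The call was lost without vehicle mouse 2 (0.73; edgeR adjusted p = 0.0626) or vehicle mouse 3 (0.75; edgeR adjusted p = 0.0502), so Bst2 on Day 1 rests on which of 4 vehicle mice are kept.

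Ifit3 was not called on Day 1. The vehicle mice had 15.5, 18.4, 14.6 and 61.4 normalized counts, and the FGF1 mice 4.07, 23.5 and 44.9. The highest of all 14 mice was vehicle mouse 4 and the lowest was FGF1 mouse 1, whose library held 5 Ifit3 counts, so the ranges overlapped. The log2 fold change was −0.09 ± 0.28 (95% interval −0.63 to 0.45; edgeR adjusted p = 0.809; exact two-sided permutation p = 0.859). Without vehicle mouse 4 it was 0.67 and passed the test (edgeR adjusted p = 0.0365).

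Among the transcription factors, Irf9, the DNA-binding subunit of ISGF3, was at 16.4, 17.3, 23.6 and 28.2 normalized counts with vehicle and at 27.7, 40.7 and 45.4 (lowest, median, highest) with FGF1. The groups overlapped by 1 mouse each, since FGF1 mouse 1, the lowest of its group, lay below vehicle mouse 4. Irf9 was 1.89-fold higher (log2 fold change 0.92 ± 0.15; edgeR adjusted p = 3.16e-06; exact two-sided permutation p = 0.00200). Its partner Stat2 was at 27.2, 24.3, 37.8 and 47.3 with vehicle and at 36.7, 41.8 and 47.5 with FGF1, so vehicle mice 3 and 4 lay within the FGF1 range. The difference in Stat2 passed the adjusted p but not the fold threshold (log2 fold change 0.30 ± 0.11; edgeR adjusted p = 0.0242), and without vehicle mouse 4 it was 0.50 and still a little under that threshold (0.499959).

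Irf1 was at 11.8, 11.2, 12.8 and 12.9 normalized counts in the vehicle mice, the tightest vehicle group of the 7 members, and at 11.4, 16.8 and 19.6 in the FGF1 mice. The lowest FGF1 value again came from mouse 1, where it lay among the vehicle values. The log2 fold change was 0.49 ± 0.15 (edgeR adjusted p = 0.00817), just under the fold threshold, and became 0.51 and called without FGF1 mouse 1 (11.6% of all genes were then called higher), as it did at 0.50 to 0.52 on leaving out any of FGF1 mice 4, 5, 7 and 9 or vehicle mice 3 and 4. Irf7 was at 2.28, 2.63, 2.16 and 7.55 with vehicle and at 2.74, 4.78 and 8.91 with FGF1. It was not called (log2 fold change 0.54 ± 0.27; edgeR adjusted p = 0.101), and without vehicle mouse 4 it was called at 1.17 (edgeR adjusted p = 0.000605). In that smaller set, Irf7, Irf9, Bst2 and Ifitm3 had no overlap between FGF1 and vehicle mice, against 8.92% of all genes. That mouse was left out for its high levels of the members, so the share is not a like comparison.

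Levels per kilobase of exon allow only a rough comparison between genes, because the length joins all annotated exons. For Irf7 these form 1 block of 3776 bases over its whole span, and for Irf9 they hold 5386 bases. The places of Irf7 and Irf9 may therefore depend on the annotation. Per kilobase, the mean normalized counts in the vehicle mice of Day 1 were 15.7 for Ifit3, 13.7 for Ifitm3, 5.76 for Stat2, 3.97 for Irf9, 3.06 for Irf1, 3.02 for Bst2 and 0.968 for Irf7. The first place of Ifit3 rested on vehicle mouse 4: without it Ifitm3 was at 11.8 ± 2.42 (SD, n = 3) and Ifit3 at 9.24 ± 1.13, while Bst2 was at 1.99 and Irf7 at 0.624. In FGF1 mice Ifitm3 was at 67.7 ± 30.9 (SD, n = 10) and Ifit3 at 14.01 ± 6.89. The order of Irf9 (7.40) and Stat2 (7.06) in those mice rests on a difference smaller than the spread between mice.

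**Figure D2:**
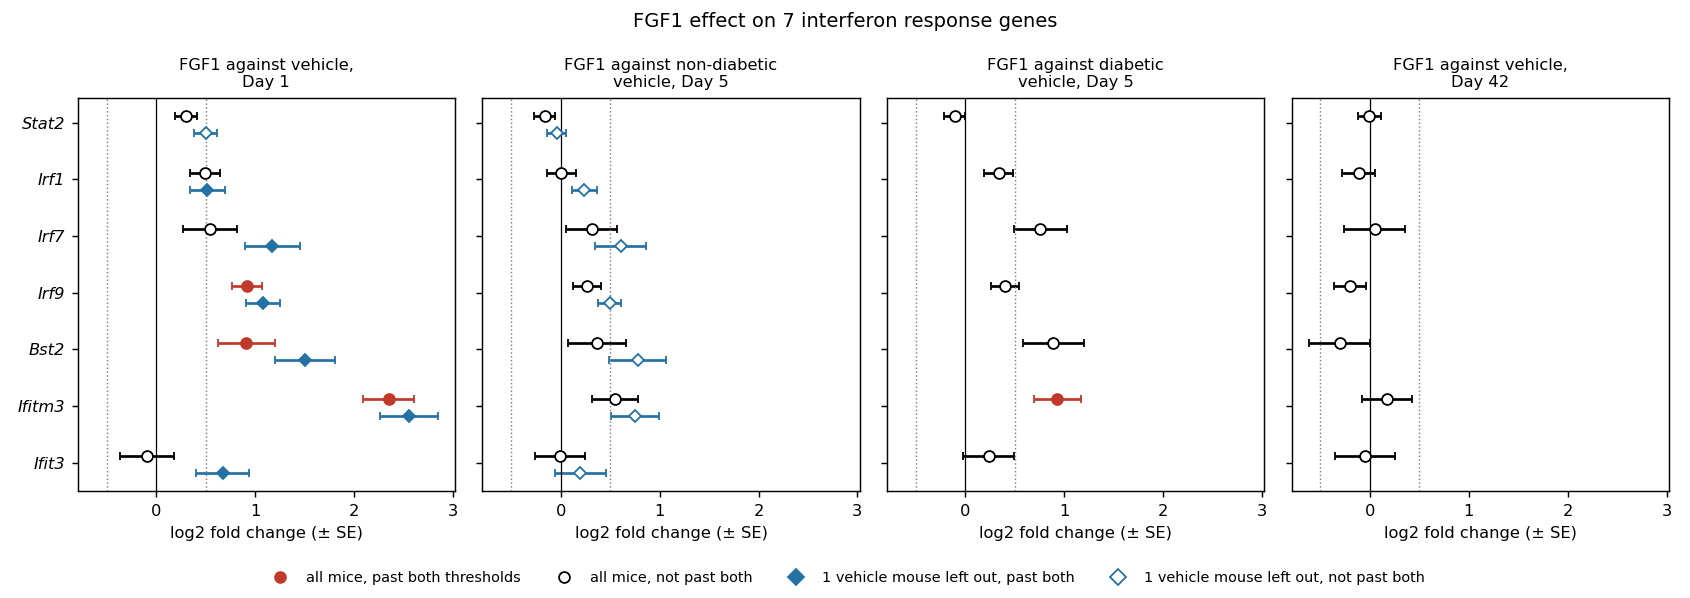
Log2 fold change of each member, FGF1 against vehicle, on Day 1, on Day 5 against either vehicle group and on Day 42, with bars for the SE derived from the edgeR F statistic and dotted lines at the fold threshold of 0.5. Circles are fits of all mice and diamonds fits without vehicle mouse 4 of Day 1 or non-diabetic vehicle mouse 2 of Day 5, and filled symbols passed both thresholds. Ifitm3 on Day 1 lies furthest from 0 at 2.35, and the Day 42 values lie between −0.31 and 0.17.

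On Day 5 the same 9 FGF1 mice were set against both vehicle groups, so these comparisons share their treated animals and are not independent. Ifitm3 was called higher against the diabetic pair-fed vehicle, 1 of 7 members where 2.36% of all genes were called higher and 2.85% in either direction. Against the non-diabetic pair-fed vehicle, edgeR called 0 of 7 members, where it called 1.54% of all genes, and 1 member had an unadjusted p under 0.05 (Ifitm3). DESeq2 also called 0 of the 7, and limma voom with sample weights called 2 higher (Bst2 and Ifitm3), where it called 2.46% of all genes higher and 3.08% in either direction. With the mice of Day 5 fitted alone edgeR called 1 higher (Ifitm3), beside 2.13% of all genes. Without non-diabetic vehicle mouse 2 edgeR again called 0 of 7 members, and 1.49% of all genes higher. With both vehicle groups merged, 1 of 7 members (Ifitm3) was called, against 2.20% of all genes called higher, and with mouse 2 left out of the merged group 3 were (Ifitm3, Bst2 and Irf7), against 2.5%. Between the vehicle groups themselves edgeR called 0 of 7 members and 0% of all genes, with 1 member (Irf1) and 193 genes at an unadjusted p under 0.05, and DESeq2 and limma voom called 0 members.

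Ifitm3 on Day 5 was at 6.40, 9.27 and 10.8 normalized counts (lowest, median, highest) with FGF1, at 3.93, 5.24 and 10.8 in the non-diabetic vehicle mice, and at 3.66, 4.28 and 6.20 in the diabetic vehicle mice. The FGF1 mice lay above each diabetic vehicle mouse, and overlapped the non-diabetic ones, whose highest value came from mouse 2. Against the diabetic vehicle Ifitm3 was 1.91-fold higher (log2 fold change 0.93 ± 0.24, n = 9 and 7; edgeR adjusted p = 0.00804; exact two-sided permutation p = 8.74e-05, the smallest possible). Against the non-diabetic vehicle the log2 fold change was 0.55 ± 0.24 (edgeR adjusted p = 0.206; exact two-sided permutation p = 0.00822, with no adjustment over genes), and without mouse 2 it was 0.75 (edgeR adjusted p = 0.0625).

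Irf9 on Day 5 was at 15.0, 17.2 and 19.8 normalized counts with FGF1, at 9.44, 13.1 and 26.5 in the non-diabetic vehicle mice and at 11.0, 13.1 and 14.4 in the diabetic vehicle mice. The FGF1 values lay above the whole diabetic vehicle range. With Ifitm3 this made 2 of 7 members apart from that group, against 3.63% of all genes, while 0 of 7 were apart from the non-diabetic vehicle group, against 2.38%. The log2 fold change was 0.40 ± 0.14 against the diabetic vehicle (edgeR adjusted p = 0.0619) and 0.27 ± 0.14 against the non-diabetic one (edgeR adjusted p = 0.339). Without non-diabetic vehicle mouse 2, Irf9 lay apart from that group too, against 3.16% of all genes, with a log2 fold change of 0.49 (edgeR adjusted p = 0.00644), a difference under the fold threshold.

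Irf7 and Bst2 gave values close to those of Ifitm3 against the diabetic vehicle but were not called. Irf7 was at 3.47, 4.98 and 6.69 normalized counts with FGF1, at 2.38, 3.42 and 8.45 in the non-diabetic and at 1.87, 3.06 and 3.66 in the diabetic vehicle mice, and Bst2 at 1.88, 2.80 and 3.84, at 0.983, 1.74 and 5.38, and at 0.831, 1.46 and 2.12. In both genes the highest of the 23 mice was non-diabetic vehicle mouse 2. Against the diabetic vehicle the log2 fold change was 0.76 ± 0.26 for Irf7 (edgeR adjusted p = 0.0602) and 0.89 ± 0.31 for Bst2 (edgeR adjusted p = 0.0562). Both were called on fitting the Day 5 mice alone, with DESeq2 and with limma voom, which gave 3 members called higher against this group, where 3.18%, 2.29% and 3.26% of all genes were called higher by these fits in turn. Against the non-diabetic vehicle these were 0.31 and 0.37, and without mouse 2 they were 0.60 and 0.78 (edgeR adjusted p = 0.198 and 0.124).

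Stat2, Irf1 and Ifit3 showed smaller differences on Day 5. The FGF1 medians were 15.1, 9.40 and 22.2 normalized counts, the non-diabetic vehicle medians 15.3, 8.10 and 19.7, and the diabetic vehicle medians 16.1, 7.34 and 18.1. Fold changes on the log2 scale were −0.16, 0.01 and −0.01 against the non-diabetic vehicle and −0.11, 0.34 and 0.24 against the diabetic vehicle, none of them called. For Stat2 the 95% interval against the diabetic vehicle ran from −0.31 to 0.10, so that a rise of the size seen for Ifitm3 lay outside it. Between the vehicle groups, diabetic against non-diabetic, the 7 log2 fold changes ran from −0.52 (Bst2) to −0.05 (Stat2), with adjusted p of 1.00. These values rested largely on non-diabetic vehicle mouse 2: without it they ran from −0.18 (Ifitm3) to 0.0951 (Irf9), with Bst2 at −0.11, Irf7 at −0.15, Irf1 at −0.0970 and Stat2 at 0.0666, and none was called.

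On Day 42 no member was called. edgeR called 0 of 7 members and 0% of all genes, and at an unadjusted p under 0.05 there were 0 members and 776 genes. DESeq2 and limma voom also called 0 members. Ifitm3 was at 9.15, 9.02, 9.14, 7.47 and 9.55 normalized counts in the FGF1 mice and at 6.30, 6.63, 9.67, 7.18 and 9.42 in the vehicle mice, and the log2 fold change was 0.17 ± 0.25 (95% interval −0.32 to 0.66). Irf9 was at 16.0, 14.3, 16.2, 15.0 and 10.1 with FGF1 and at 14.5, 12.4, 18.3, 18.4 and 18.8 with vehicle, and its log2 fold change was −0.20 ± 0.16. The groups overlapped for both genes. Exact two-sided permutation tests of the 7 members gave p between 0.238 and 1.00, where 0.00794 is the smallest that 5 against 5 mice allow.

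At 5 mice a group the precision on Day 42 was uneven. The 95% interval of the log2 fold change was narrowest for Stat2 (−0.24 to 0.22) and wide for Irf7 (−0.55 to 0.65) and Bst2 (−0.92 to 0.30), which had 0.839 to 3.27 normalized counts in the case of Bst2. The log2 fold change of Irf7 measured on Day 5 against the non-diabetic vehicle (0.31) lay within its Day 42 interval.

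**Figure D3:**
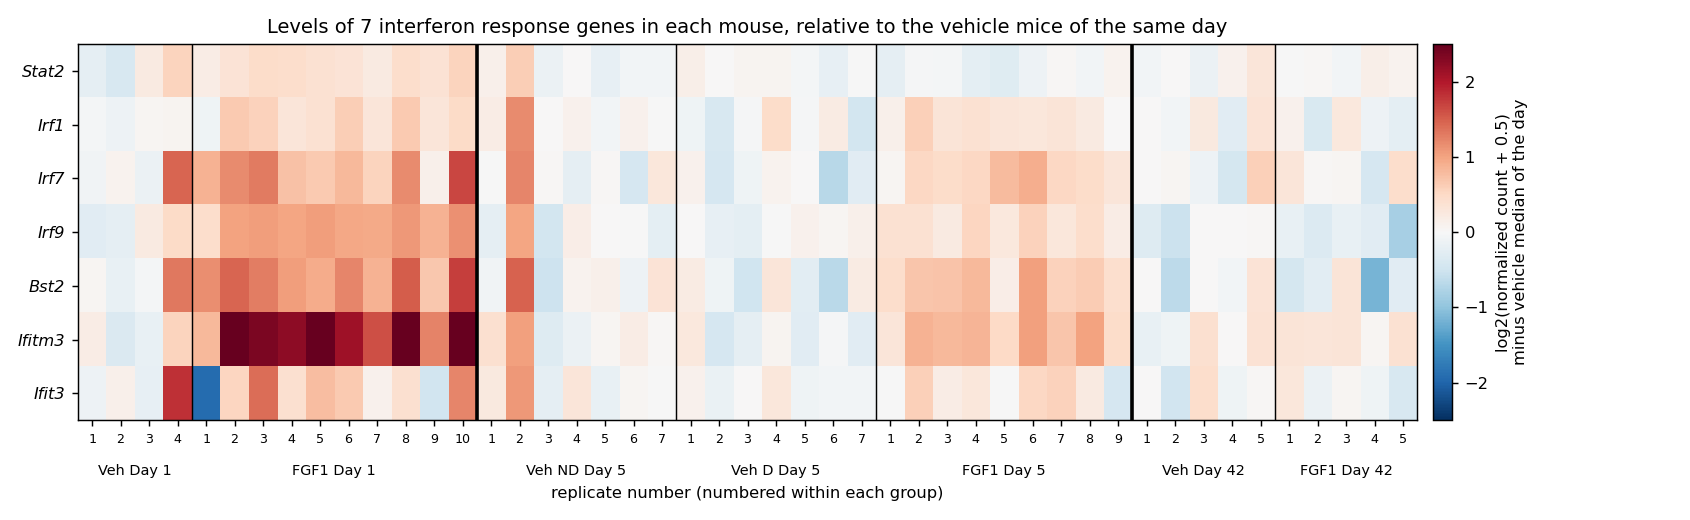
Log2 normalized count of each member (pseudocount 0.5) in each mouse, shown as the difference from the median of the vehicle mice of the same day, with mice in columns by group. Vehicle mouse 4 of Day 1 and non-diabetic vehicle mouse 2 of Day 5 lie above the vehicle median of their day for the 7 members, the former only slightly for Irf1 (12.9 normalized counts).

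The change of the FGF1 effect between days was tested directly as a difference of log2 fold changes, each against the non-diabetic vehicle of its day. From Day 1 to Day 5 the effect fell for Ifitm3, by 1.801 on the log2 scale (SE 0.34; edgeR adjusted p = 4.90e-05), and for Irf9, by 0.65 (SE 0.20; edgeR adjusted p = 0.0138). These were 2 of 7 members, where the effect fell for 8.52% of all genes and changed in either direction for 15.8%. From Day 1 to Day 42 it fell for 4 of 7 members, by 2.18 for Ifitm3, by 1.22 for Bst2, by 1.12 for Irf9 and by 0.61 for Irf1 (edgeR adjusted p = 4.46e-06, 0.0279, 0.000126 and 0.0402), against 9.81% of all genes falling and 16.4% changing. From Day 5 to Day 42 edgeR called 0 of 7, against 0.717% of all genes, and DESeq2 and limma voom called 0, while 1 member, Irf9 at −0.47, had an unadjusted p under 0.05 (edgeR adjusted p = 0.435).

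These contrasts share groups, so the calls of one are not support for those of another. The fall of Irf1 from Day 1 to Day 42 was not called with other scaling factors, DESeq2 or limma voom (log2 difference −0.59 to −0.50), or on leaving out any 1 of 11 libraries, nor that of Bst2 with limma voom (−1.24) or without FGF1 mouse 4 of Day 42, vehicle mouse 1, 2 or 3 of Day 1 or vehicle mouse 5 of Day 42 (−1.09 to −1.01). Limma voom thus called 2 members lower, Irf9 and Ifitm3, beside 8.33% of all genes. Irf9 from Day 1 to Day 5 was not called without vehicle mouse 1 or 2 of Day 1 (−0.55 and −0.56). The contrasts also moved with the 2 vehicle mice described above. Without vehicle mouse 4 of Day 1 the effect fell from Day 1 to Day 5 for 4 members (Stat2, Irf9, Bst2 and Ifitm3, against 9.87% of all genes) and from Day 1 to Day 42 for 6, against 11.1%. Without non-diabetic vehicle mouse 2 of Day 5, Ifitm3 alone was called from Day 1 to Day 5 (by −1.60; 8.30% of all genes fell), and Irf9 was called from Day 5 to Day 42 (log2 difference −0.69; edgeR adjusted p = 0.0326; 0.492% of all genes fell).

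Around the members, 159 genes of interferon signalling were listed by role, of which 108 were in the table. On Day 1, 35 of the 108 were called higher and 7 lower, with a median log2 fold change of 0.36, beside 11.5% and 8.05% of all genes and a median of 0.007. Without vehicle mouse 4 these were 49 higher and 7 lower with a median of 0.48, beside 12.8% and 8.89% of all genes. With a minimum of 10 counts in every library, which left 52 of the 108 to test, 16 were called higher and 0 lower, with a median of 0.32, beside 9.43% and 4.98% of the genes then tested. The list of 10 interferon genes themselves had 0 members in the table, so the ligands were not analysed here. Libraries of Day 5 had 0 to 2 genes of the table at 0 counts. Those of Day 1 had 83 to 539, and those of Day 42 had 78 to 136. How genes were chosen for the table is not stated, so a gene's absence from it does not show that it was silent on Day 1.

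At the receptors, 2 of 8 genes measured on Day 1 were called higher and 0 lower: Ifnar2, at 18.6 normalized counts on average with FGF1 against 12.1 with vehicle (log2 fold change 0.63; edgeR adjusted p = 1.29e-06), and Il10rb, a subunit shared by the interferon lambda and interleukin 10 receptors (0.83; edgeR adjusted p = 4.80e-06). Ifnar1 was under the fold threshold at 0.46, and Ifngr1, Ifngr2 and the kinases Jak1, Jak2 and Tyk2, at 0.13 to 0.47, were not called. Of 11 STAT and IRF factors measured, 5 were higher and 1 lower, among them Irf3, which acts below nucleic acid sensors (0.98), and Irf8, a factor of myeloid cells (0.89). Of 18 sensors and adaptors, 6 were higher and 2 lower. Tmem173 (STING), the adaptor for cytosolic DNA, was at 10.8 against 2.33 normalized counts (log2 fold change 2.24; edgeR adjusted p = 5.78e-14), Tlr4, the endotoxin receptor, had a log2 fold change of 1.66, and its adaptor Myd88 of 1.55. The RNA helicase Ddx60 fell by 1.46.

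Of 43 antiviral effectors, 9 were higher and 3 lower on Day 1, with a median of 0.26, and 19 were higher without vehicle mouse 4. Some relatives of Ifitm3 were among them: Ifitm1 was at 6.55 against 1.61 normalized counts (log2 fold change 2.03) and Ifitm2 had a log2 fold change of 1.24. Ifitm3 shares 3.18% of its 50-base transcript windows with Ifitm2 and 2.38% with Ifitm1. Trim5, which binds retroviral capsids, fell by 1.07. Ifit3b, the copy that shares sequence with Ifit3, was at 9.94 against 14.4 (log2 fold change −0.49, edgeR adjusted p = 0.0964). That vehicle mean leaned on mouse 4, at 29.9 normalized counts against a mean of 9.26 in its group mates. Of 16 interferon gamma targets, 9 were higher and 1 lower, with a median of 0.79. They included Nlrc5, which drives MHC class I genes (1.97), Gbp2 (1.70) and Gbp5 (1.38), and Ciita, which had 0 to 4 counts per vehicle library and for which no fold is given. Among 8 brakes on the pathway, 3 were higher and 0 lower: the ubiquitin ligase Rnf125 (1.93) and the phosphatases Ptpn6 (1.47) and Ptpn2 (0.67). The summed level of the 8 was lower, at 343 to 382 normalized counts with FGF1 against 385 to 423 with vehicle. Of 4 genes that attach or remove ISG15, 1 was higher, the conjugating enzyme Ube2l6 (0.53).

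On Day 5 edgeR called fewer genes of the pathway lists than on Day 1. Against the non-diabetic vehicle, 4 of 108 genes were higher and 1 lower, beside 1.31% and 0.232% of all genes: Irf8 (log2 fold change 0.64), Tmem173 (0.67), Tlr4 (0.57) and the scramblase Plscr2 (0.74) were higher, and Oas1c fell by 0.73. Without non-diabetic vehicle mouse 2 these were 9 and 1, beside 1.49% and 0.267% of all genes. The median of the 16 interferon gamma targets turned from −0.34 to 0.43 on leaving out that mouse, with 0 called with all mice included. Against the diabetic vehicle, 12 pathway genes were higher and 1 lower, beside 2.36% and 0.499% of all genes. With the mice of Day 5 fitted alone these were 24 and 1, beside 3.18% and 0.717%, and with limma voom 28 and 1, beside 3.26% and 0.809%. None of the receptors was called against the non-diabetic vehicle.

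**Figure D4:**
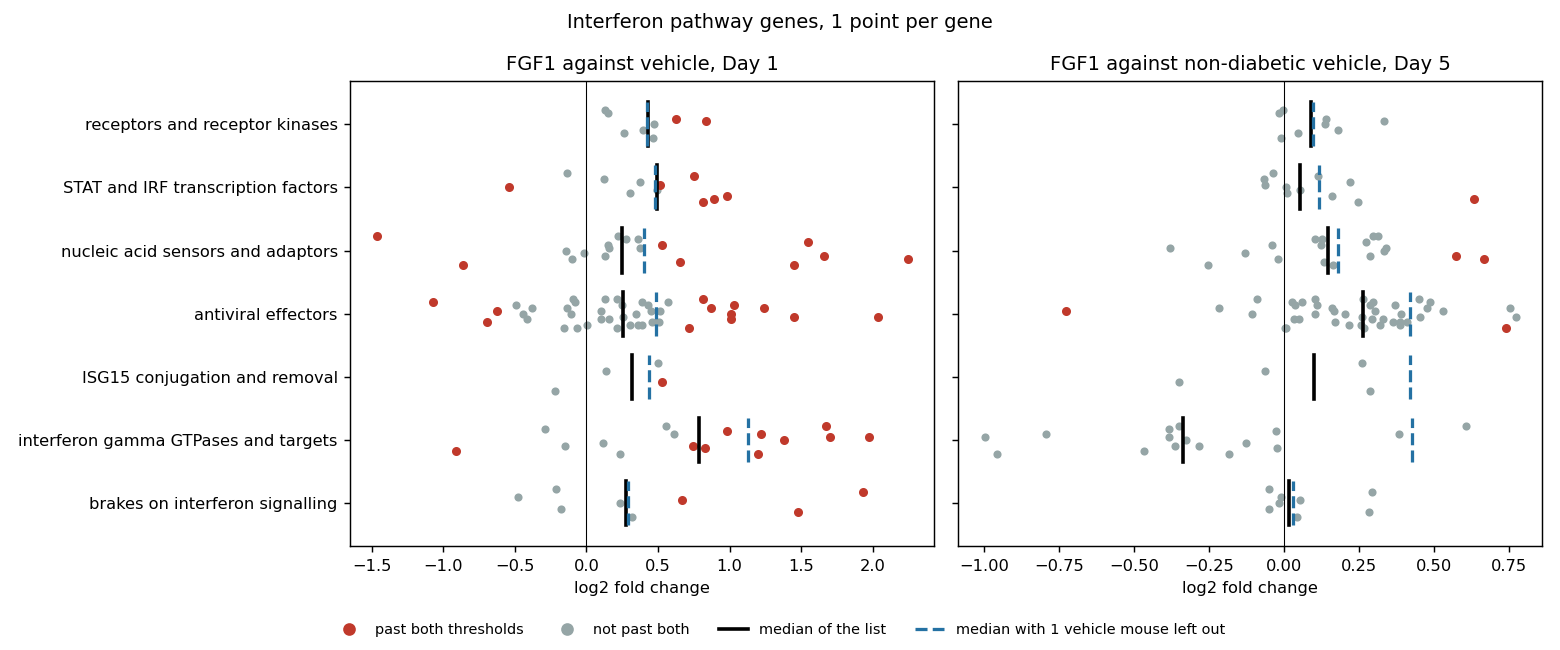
Log2 fold change of each measured gene in the 7 interferon pathway lists, FGF1 against vehicle, on Day 1 and against the non-diabetic vehicle on Day 5, with red points for called genes, a black bar at the list median and a dashed bar at the median without vehicle mouse 4 of Day 1 or non-diabetic vehicle mouse 2 of Day 5. On Day 1 the median of the interferon gamma targets is the highest at 0.79 and that of all 108 genes is 0.36; on Day 5 the gene list with the lowest median, −0.34, is the same one, and 5 genes are called.

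Markers of other cells moved on the same days. On Day 1, 7 of 10 microglial markers were called higher and 1, P2ry12, lower, and their summed level was 262 to 357 normalized counts in FGF1 mice and 225 to 256 in vehicle mice. Of 16 leukocyte markers, 3 were in the table and those 3 were higher (Ptprc 1.24, Ccr2 1.69 and Lyz2 0.72), with sums of 10.3 to 39.7 against 11.0 to 16.9; of 7 markers of border macrophages, 4 were measured and 3 were higher, with sums of 10.6 to 48.8 against 8.75 to 22.5. Other markers moved on Day 1 too: the summed level of 8 meningeal markers (3 higher, 2 lower) was 87.2 to 471 with FGF1 and 143 to 207 with vehicle, that of 7 tanycyte and ependymal markers (1 higher, 3 lower) 484 to 796 against 151 to 222, and that of 3 choroid plexus markers (2 lower) 18.7 to 36.3 against 42.9 to 56.2. Of 10 endothelial markers, 3 were higher and 1 lower; of 8 astrocyte markers, 2 were higher and 1 lower; and of 4 blood markers none was called, by edgeR. Neuronal markers were lower in sum: 8 general ones, none of them called, summed to 3453 to 4412 with FGF1 and 4579 to 5676 with vehicle, and 10 hypothalamic ones, of which 2 were called lower, to 773 to 1150 and 1186 to 1537. On Day 5 the microglial sum was 315 to 387 with FGF1, 247 to 394 in the non-diabetic and 223 to 265 in the diabetic vehicle mice, and 1 of 10 and 7 of 10 markers were called higher against them. The leukocyte sum was 27.2 to 61.6 with FGF1, 13.3 to 40.8 in the non-diabetic and 12.0 to 23.5 in the diabetic vehicle mice, with 2 of 3 markers called higher against each. The astrocyte sum was 5144 to 5682 against 4512 to 4708 and 4380 to 4901, without overlap, with 2 of 8 markers called higher against each. The sum of the 8 general neuronal markers was lower, at 2583 to 3163 with FGF1 against 3191 to 3341 in the non-diabetic vehicle mice, without overlap, and 3015 to 3513 in the diabetic ones, with none of the 8 called by edgeR. The meningeal sum was 119.7 to 362 against 79.0 to 208 and 91.0 to 211, with 3 and 1 of 8 markers called higher. Border macrophage markers summed to 18.4 to 37.4 against 13.6 to 22.1 and 15.3 to 20.3, with 0 and 1 of 4 called higher, and 1 of 7 tanycyte and ependymal markers was called higher against each group. On Day 42 the microglial sum was 271 to 326 against 242 to 323. Their part in the differences of the members was not tested.

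The pattern of the members over mice was compared with that of the other 14214 genes, by the correlation of each gene with the mean of the 7 members over the 47 libraries, each centred on its day. Libraries share treatment groups and depth, so this is a description. The most alike were Oasl2 (r = 0.86), Gbp3 (0.86), the lectin Lgals9 (0.81), the secreted glycoprotein Lgals3bp (0.80) and the complement subunit C1qa (0.80), while the median gene had r = 0.016. Of the 30 most alike, 16 were in the interferon pathway lists. Without the 2 vehicle mice these 5 genes ranked 14, 38, 87, 39 and 48, with r of 0.79 to 0.84, so their place at the top leaned on those mice while their likeness stayed high. Within the set, Bst2 and Irf9 (both 0.87) lay closest to the mean that they help to form, and Stat2 (0.68) and Ifit3 (0.67) furthest from it. Without the 2 vehicle mice Ifitm3 was closest (0.94), ahead of Irf9 (0.86) and Bst2 (0.84), and Stat2 (0.60) and Ifit3 (0.67) were again the furthest.

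Of these 5 genes, Lgals3bp was at 65.2 to 99.9 normalized counts in FGF1 mice of Day 1 and at 25.9 to 58.1 in vehicle mice, without overlap. C1qa was likewise apart, at 21.1 to 44.96 against 9.91 to 17.97, as were 7.56% of all genes. Levels were centred on day and not on treatment, so a difference between FGF1 and vehicle was part of how these genes were picked. Oasl2 overlapped on that day, at 12.2 to 36.7 against 8.87 to 37.4, with vehicle mouse 4 the highest of the 14.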

How the data were processed

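Bulk mRNA sequencing of 47 mouse hypothalami, 1 library per mouse, was deposited by the authors as a table of raw counts per gene. Per the labels, RNA was isolated with RNeasy kits and libraries were prepared with a stranded mRNA kit; the submitters' processing notes name STAR, DESeq2 and, for these mouse data, the build GRCh38. The study's methods name the build with a release number, and the counting program was not given in the sources used here.

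Deposited counts were scaled by TMM and fitted with edgeR 4.0.16 (R 4.3.3) as 7 group means by the quasi-likelihood test, with Benjamini-Hochberg adjustment over 14221 genes. The low-count filter (filterByExpr) removed 0 genes. Group differences of single members were also tested by exact two-sided permutation of log2(normalized count + 0.5). The fit was tested on simulated counts. No 2 replicates agreed within counting noise. Alternatives used limma 3.58.1, DESeq2 1.42.0, other scalings and filters, and omission of each library. Omission of single Day 5 mice, and of FGF1 mice of Day 1 other than mouse 1, was not planned beforehand. Leaving out vehicle mouse 4 of Day 1 with mouse 2 of Day 5 was chosen after seeing the data. So was merging the Day 5 vehicle groups minus mouse 2, and so was the emphasis on fits without either mouse. The SE of an edgeR log2 fold change was its absolute value over the square root of the F statistic. Intervals are at 95%, from that SE with a normal multiplier, and are approximate. For Irf7 on Day 1 the interval was 0.008 to 1.08 at an unadjusted edgeR p of 0.0525.

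The members, and the lists of 159 pathway genes and of cell markers, were chosen with earlier results of these data known. Besides the members, the text names the pathway genes that ranked highest by absolute fold change among called genes of each list, the receptors, and the 5 genes most alike in pattern; others are marked. Diabetic and non-diabetic vehicle groups follow the labels, although the labels' protocol counts 7 vehicle mice on Day 5 and the labels list 14. A gene that the naming rule also covers is not reported here.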

Additional observations from a re-analysis of the deposited data

Results flagged for a closer look

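In each group of 4 to 10 mice, the highest or lowest mouse of a member was compared with the range of its group by Dixon's criterion, which marks about 5% of groups by chance; of 49 groups, 13 were marked. Non-diabetic vehicle mouse 2 of Day 5 was the high one for 7 of them, with normalized counts of 24.6 for Stat2, 17.6 for Irf1, 8.45 for Irf7, 26.5 for Irf9, 5.38 for Bst2, 10.8 for Ifitm3 and 40.7 for Ifit3. Vehicle mouse 4 of Day 1 was far above the other 3 mice for Irf7 (7.55), Bst2 (5.50) and Ifit3 (61.4). FGF1 mouse 1 of Day 1, the library with the fewest counts, was far below its group for Irf1 (11.4) and Irf9 (27.7), and FGF1 mouse 4 of Day 42 was below its group for Ifitm3 (7.47).

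The FGF1 effect differed between days by the test of the difference itself. The log2 difference of effects from Day 1 to Day 5 was −0.65 for Irf9 and −1.80 for Ifitm3. From Day 1 to Day 42 it was −0.61 for Irf1, −1.12 for Irf9, −1.22 for Bst2 and −2.18 for Ifitm3. Not all of these calls held on leaving out libraries in turn: from Day 1 to Day 42 Irf9 and Ifitm3 were called in 24 of 24 omissions, Bst2 in 19 and Irf1 in 13, and from Day 1 to Day 5 Ifitm3 in 30 of 30 and Irf9 in 27. Irf1 was also not called with DESeq2 or limma voom, nor Bst2 with limma voom. The deposited sample sheet gives each day its own preparation label, so day and preparation cannot be told apart.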

How the results depend on the processing

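Of 396 member fold changes recomputed under another scaling, filter, tool or choice of vehicle mice, 356 kept their direction and their side of the thresholds, 5 lost a call, 18 gained one and 17 changed sign, each of the 17 uncalled; the cause was not tested. The sign changes, in log2 fold change, were as follows. With limma voom, Ifit3 was at 0.11 on Day 1, 0.105 against the non-diabetic vehicle on Day 5, 0.0448 on Day 42, −0.00862 for the change from Day 1 to Day 5 and −0.0688 from Day 1 to Day 42, while on Day 42 Irf1 was at 5.35e-05 and Stat2 at 0.0230. With DESeq2 size factors and with DESeq2, Irf1 against the non-diabetic vehicle was at −0.000915 and −0.000948, and Stat2 on Day 42 at 0.00476 and 0.00470. Ifit3 against the non-diabetic vehicle was at 0.00117 with upper quartile factors, 0.11 with both Day 5 vehicle groups merged, 0.22 with these merged minus mouse 2, and 0.0792 without the 2 deepest FGF1 libraries. Without the 2 vehicle mice that stood apart, the change for Ifit3 was −0.47 from Day 1 to Day 5 and −0.72 from Day 1 to Day 42. With a pseudocount of 2, the difference of Stat2 on Day 42 changed sign at an exact permutation p of 0.992. Counts of called members were 5 on Day 1 with no fold threshold, beside 45% of all genes. On Day 5 against the non-diabetic vehicle, 1 was called with the day alone (2.13% of all genes higher) and 2 with limma voom (2.46%). With the vehicle groups merged 1 was called (2.20%), and 3 with these merged minus mouse 2 (2.5%). Against the diabetic vehicle 3 were called with the mice of the day alone (3.18%), DESeq2 (2.29%) or limma voom (3.26%). For the change from Day 1 to Day 42 limma voom called 2 lower (8.33% of all genes), and from Day 5 to Day 42 1 was called lower without both vehicle mice (0.513%). Pathway genes called on Day 1 were 16 with a minimum of 10 counts in every library, which left 52 of 108 to test. Of all genes then tested, 14.4% were called. Against the non-diabetic vehicle on Day 5, pathway genes called were 3 with that minimum (1.28% of all genes tested) and 9 with the day alone (2.6%). With limma voom they were 11 (3.08%). With the vehicle groups merged they were 12 (2.62%), and 21 with these merged minus mouse 2 (2.97%). There were 8 with no fold threshold and 2 without the 2 deepest FGF1 libraries, for which no share of all genes is given. Leaving out each library in turn, called members on Day 1 ran from 2 (without vehicle mouse 2) to 6 (without vehicle mouse 4, 12.8% of all genes higher). Against the diabetic vehicle they ran from 1 to 2 (2 without FGF1 mouse 1 or diabetic vehicle mouse 4). For the change from Day 1 to Day 5 they ran from 1 to 4, and from Day 1 to Day 42 from 2 to 6. The highest counts of these changes came without vehicle mouse 4 of Day 1, where 9.87% and 11.1% of all genes fell. From Day 5 to Day 42 they ran from 0 to 1 (without mouse 2 of Day 5, 0.492% of all genes falling). Pathway genes against the non-diabetic vehicle ran from 2 (without vehicle mouse 3) to 10 (without mouse 2, 1.76% of all genes called). No share of all genes is given here for the other omissions. Over the same omissions the values that changed sign ran as follows, in log2, uncalled except Ifit3 on Day 1 without vehicle mouse 4. Ifit3 ran from −0.30 to 0.67 on Day 1, from −0.0763 to 0.20 against the non-diabetic vehicle, from −0.15 to 0.0841 on Day 42, and in the changes from −0.68 to 0.295 (Day 1 to 5), from −0.72 to 0.25 (Day 1 to 42) and from −0.25 to 0.0926 (Day 5 to 42). Irf1 ran from −0.0470 to 0.24 against the non-diabetic vehicle, Stat2 from −0.0944 to 0.0666 and Irf9 from −0.21 to 0.10 between the vehicle groups, Stat2 from −0.0536 to 0.0645 and Irf7 from −0.0779 to 0.28 on Day 42, and Irf7 from −0.86 to 0.0623 for the change from Day 1 to Day 5. No paired analysis was possible because the labels give no replicate numbers. Depth limits Ifit3, Irf7 and Bst2 most in the smallest library, with 5, 6 and 6 counts.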
